A study of Rattus norvegicus with 24 samples.

Results

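The set consisted of 10 genes, Ier2, Ier3, Dusp1, Gadd45b, Fos, Jun, Junb, Egr1, Atf3 and Btg2, all known as immediate early or stress response genes, and was described in rat liver. A gene counted as measured where a probe set carried its symbol, and no other symbol, in the platform annotation. By that rule 9 of the 10 genes were measured, of 16856 genes with such a probe set, and all 9 were among the 12745 of those genes that were tested. Each was represented by 1 probe set, of 20917 on the array and 15687 tested. Btg2, a gene that restrains proliferation, was not analysed here.

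The 24 livers were those of adult F2 females of the Sprague-Dawley strain, with 1 Affymetrix array each. The design crossed the diet of the grandfather (F0), chow or a high-fat diet (HFD), with the diet of the female, chow or a HFD (given as 42 or 45% of energy from fat) eaten for 12 weeks. The 4 groups were GpatCD-CD (grandfather and female both on chow, n = 7), GpatCD-HF (grandfather on chow, female on the HFD, n = 6), GpatHF-CD (grandfather on the HFD, female on chow, n = 6) and GpatHF-HF (both on the HFD, n = 5). The chow line and the HFD line below are named after the grandfather's diet. All females shared strain, sex and tissue. The labels do not say which females shared a litter or a grandfather, so every p-value treats an array as an independent animal and would be too small where females are related.

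Immediate early genes are switched on within minutes of a signal, from factors already present in the cell and without new protein synthesis. Growth factors and stress act largely through mitogen-activated protein (MAP) kinases and serum response factor, which binds CArG boxes, and hormones that raise cyclic AMP act through CREB at cyclic AMP response elements (CRE). Most of the transcripts are short-lived. Their products are transcription factors of the AP-1, EGR and ATF families and feedback proteins that damp the same kinases, and in liver the set is known for its part in regeneration, fasting and acute injury.

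Promoter sequences, taken as the 250 bases before the annotated start, were found in RefSeq (rat assembly GRCr8) for Ier2, Dusp1, Gadd45b, Junb, Egr1 and Btg2, that is for 6 of the 10 symbols. The sequences of 4 of the measured genes are given here, 5′ to 3′, because they hold motifs of the kinds named above or a TATA box, and because Ier2, Junb and Egr1 varied together between females (below). Capitals mark a CRE (TGACGTCA) in Ier2 and Dusp1, a pair of CArG boxes in Egr1 and a TATA box (TATAAA) in Junb. The windows are chr19:40399123-40399372 (plus strand) for Ier2, chr10:17184603-17184852 (plus) for Dusp1, chr18:26736828-26737077 (plus) for Egr1 and chr19:40080876-40081125 (plus) for Junb.
Ier2 promoter: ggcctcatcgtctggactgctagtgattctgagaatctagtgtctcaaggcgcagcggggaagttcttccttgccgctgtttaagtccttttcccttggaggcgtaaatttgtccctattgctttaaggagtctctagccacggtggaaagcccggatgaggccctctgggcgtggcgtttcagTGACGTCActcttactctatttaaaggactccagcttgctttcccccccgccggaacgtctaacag
Dusp1 promoter: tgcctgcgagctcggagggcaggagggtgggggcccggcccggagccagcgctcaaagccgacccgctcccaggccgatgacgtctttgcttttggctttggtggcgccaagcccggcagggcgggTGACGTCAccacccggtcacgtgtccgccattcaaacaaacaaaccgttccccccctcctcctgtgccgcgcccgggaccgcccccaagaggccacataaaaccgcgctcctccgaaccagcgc
Egr1 promoter: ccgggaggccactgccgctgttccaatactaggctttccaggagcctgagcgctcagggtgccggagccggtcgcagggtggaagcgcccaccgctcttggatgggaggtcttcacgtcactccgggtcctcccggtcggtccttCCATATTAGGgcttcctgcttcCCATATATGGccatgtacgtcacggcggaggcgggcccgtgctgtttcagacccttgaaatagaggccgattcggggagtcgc
Junb promoter: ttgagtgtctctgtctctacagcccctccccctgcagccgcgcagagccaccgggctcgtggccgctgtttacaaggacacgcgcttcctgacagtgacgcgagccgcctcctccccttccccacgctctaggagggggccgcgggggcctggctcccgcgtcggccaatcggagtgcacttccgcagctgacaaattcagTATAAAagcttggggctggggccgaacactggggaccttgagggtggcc
The first base of the CRE lay 66 bases before the start in Ier2 and 124 bases before it in Dusp1, and those of the CArG boxes of Egr1 lay 105 and 83 bases before it. Searched on both strands in all 33469 promoters of the table, the CRE was present in 1.59%, a CArG box in 1.5% and the TATA box in 12.9%. The Btg2 promoter also held a CRE, with its first base 201 bases before the start. The shorter CRE core TGACG, which occurs on each strand of a full CRE and is not capitalised, was found in 18.2% of promoters and, outside any full CRE, once in Junb and at separate places in Dusp1 and Egr1. The AP-1 motif TGANTCA (6.34% of promoters) and the EGR sites GCGTGGGCG (0.478%) and GCGGGGGCG (2.45%) were not found in these windows, and Gadd45b held none of the motifs searched. A match describes the letters only. Whether any motif has a part in the way some of these genes varied together was not tested. Ier2 and Dusp1, each with a full CRE, had r = -0.03 between females with group means removed (adjusted permutation p = 0.949).

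Over all 20917 probe sets, array medians lay between 97.9 and 128 intensity units. Below, a signal is log2(deposited intensity + 16), and a fold change is a difference of group means on that scale, ± its standard error. A gene passed the test where limma's p-value, adjusted by Benjamini and Hochberg's method over the 15687 probe sets, was under 0.05. Over the 15687 tested probe sets alone, which leave out the dimmest, the mean array median in log2 signal was 7.96 ± 0.15 (SD) in GpatCD-CD, 7.96 ± 0.10 in GpatCD-HF, 7.96 ± 0.07 in GpatHF-CD and 7.83 ± 0.08 in GpatHF-HF, so the arrays of GpatHF-HF were the dimmest on average. The median fold change of all tested probe sets for GpatHF-HF against GpatCD-HF was -0.10, and -0.001 after quantile normalization. Arrays 21 and 25 (GpatCD-CD), 22 (GpatCD-HF) and 24 (GpatHF-HF) stood apart on the second principal component (13.8% of the variance), at 22.1 to 25.1 against -13.7 to 5.85 for the other 20. The tissue read as liver: all 7 matched hepatocyte markers were tested, with Alb (albumin) at a mean signal of 13.5. Of the 6 adipocyte markers tested, Lep at 5.78, Adipoq at 6.08 and Plin1 at 6.29 lay near the lowest mean tested, 5.72. Cidec, which liver also expresses, was at 10.48. The summed intensity of all 6 had a median of 1840 in GpatCD-CD, against 53253 for the hepatocyte markers. That check was made because a protocol among the labels speaks of gonadal fat.

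The first question of the design was the effect of the female's own diet. Averaged over the lines, Ier2 fell by 0.50 ± 0.12 (1.42-fold) and Ier3 fell by 0.61 ± 0.12 (1.53-fold) on the log2 scale, with limma adjusted p = 0.0209 and 0.00609. These were 2 of the 9 measured genes, against 1.99% of all 15687 probe sets called in either direction and 1.63% called lower (57 probe sets rose and 255 fell, or 167 and 260 after quantile normalization). Both genes also passed after quantile normalization and without arrays 21, 22, 24 and 25; with both changes together Ier3 passed (-0.52, adjusted p = 0.0456) and Ier2 did not (-0.41, adjusted p = 0.0865). All 9 genes had fold changes below 0, with a median of -0.37, while 64.0% of all probe sets lay below 0 and their median was -0.03. At an unadjusted p under 0.05, 5 of the 9 were lower, against 10.6% of all probe sets. Several of the 9 genes varied together between females (below), so such counts, here and below, are not counts of independent genes. In bulk liver, fewer cells of a type that expresses these genes and less RNA per cell cannot be told apart.

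**Figure D1:**
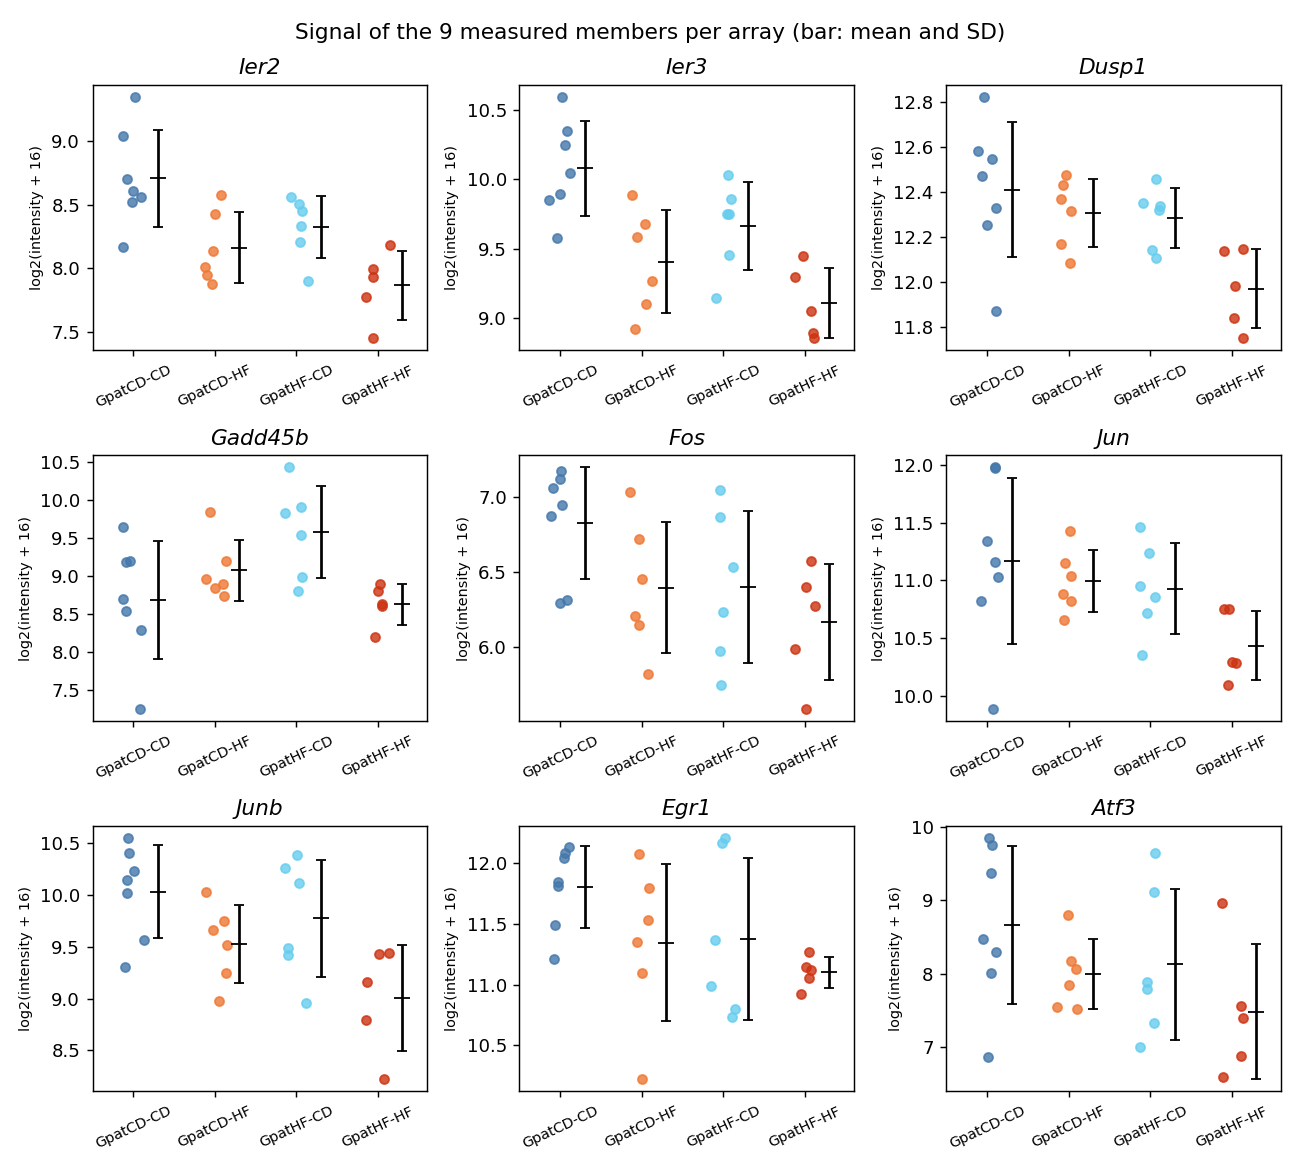
Log2 signal (log2 of deposited intensity plus 16) of the 9 measured genes, with 1 point per array, a panel per gene with its own axis, and the mean and SD of each group beside its points. Ier2 and Ier3 sit lower in both HFD groups than in the chow group of the same line, with overlap, and the mean of Gadd45b is highest in GpatHF-CD.

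Ier2 encodes a nuclear protein induced early by growth factors. Its signal was 8.17 at the lowest, 8.61 at the median and 9.35 at the highest in GpatCD-CD, and 7.88, 8.07 and 8.58 in GpatCD-HF. In GpatHF-CD it was 7.90, 8.39 and 8.56, and the 5 GpatHF-HF arrays read 7.45, 7.78, 7.93, 7.99 and 8.18. All 6 chow-line females on the HFD lay below the mean of their chow group, 4 of them below its lowest female, and all 5 HFD-line females on the HFD lay below the mean of theirs, 2 of them below its lowest. The groups still overlapped in both lines. The fold change was -0.55 ± 0.16 in the chow line (adjusted p = 0.204) and -0.46 ± 0.17 in the HFD line (adjusted p = 0.203), so neither line passed the test on its own.

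Ier3 encodes a stress-inducible protein that modulates cell survival and ERK signalling. In the chow line the signal was 9.57 at the lowest, 10.04 at the median and 10.59 at the highest on chow, and 8.92, 9.43 and 9.88 on the HFD. In the HFD line it was 9.15, 9.75 and 10.03 on chow, and the HFD females read 8.86, 8.90, 9.05, 9.29 and 9.45. Every HFD female lay below the mean of the chow group of its line, and 3 in each line lay below the lowest chow female. The fold change was -0.67 ± 0.17 in the chow line (adjusted p = 0.0978) and -0.56 ± 0.18 in the HFD line (adjusted p = 0.148). Without array 22, or without array 30, the chow-line value of Ier3 was -0.77 or -0.76 and passed (adjusted p = 0.0413 and 0.0401). It did not pass in the other fits without 1 array, and was smallest without array 33, at -0.57 (adjusted p = 0.293).

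Dusp1 encodes a phosphatase that inactivates the MAP kinases p38, JNK and ERK, and it was the steadiest gene of the set. Its signal ran from 11.87 to 12.82 in GpatCD-CD, with a median of 12.47, and from 12.08 to 12.47 in GpatCD-HF, with a median of 12.34. On chow in the HFD line it ran from 12.11 to 12.46, with a median of 12.33, and the 5 HFD-line females on the HFD read 11.75, 11.84, 11.98, 12.14 and 12.15. The groups overlapped in both lines, and 3 of those 5 females lay below the lowest chow female of their line. The own-diet value was -0.10 ± 0.11 in the chow line, -0.31 ± 0.12 in the HFD line and -0.21 ± 0.08 on average, with adjusted p = 0.871, 0.205 and 0.221.

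Gadd45b, which encodes a regulator of stress kinase signalling upstream of p38 and JNK, had own-diet values of opposite sign in the chow line and the HFD line. The chow-line females on chow read 7.25 at the lowest, 8.70 at the median and 9.64 at the highest, and those on the HFD 8.74, 8.93 and 9.84. In the HFD line the females on chow read 8.80, 9.68 and 10.43, and those on the HFD 8.19, 8.61, 8.63, 8.81 and 8.89. All 6 HFD females of the chow line lay above the mean of their chow group and all 5 HFD females of the HFD line below the mean of theirs, with overlap in both lines. The own-diet value was 0.39 ± 0.29 in the chow line and -0.96 ± 0.31 in the HFD line, and neither passed (adjusted p = 0.771 and 0.14). The interaction, the difference between these values, was -1.35 ± 0.42, with an adjusted p of 0.295 in limma's fit across all probe sets. Arrays 21, 22, 24 and 25 lay below all the other arrays of their groups for Gadd45b, and without them the interaction was -0.94 (adjusted p = 0.601) and the chow-line value 0.09.

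The AP-1 genes had negative own-diet values that did not pass the test. Fos, the classical partner of Jun, read 6.29 at the lowest, 6.95 at the median and 7.18 at the highest in GpatCD-CD, 5.82, 6.33 and 7.03 in GpatCD-HF, 5.75, 6.39 and 7.05 in GpatHF-CD, and 5.59 to 6.58 in GpatHF-HF. Jun, the DNA-binding partner that also forms dimers with itself, read 9.89, 11.16 and 11.98 in GpatCD-CD, 10.66, 10.96 and 11.42 in GpatCD-HF, 10.36, 10.90 and 11.47 in GpatHF-CD, and 10.10 to 10.76 in GpatHF-HF. Both genes overlapped widely between groups; the lowest Jun value of all belonged to a GpatCD-CD female. Averaged over the lines, the own-diet value was -0.33 ± 0.16 for Fos (adjusted p = 0.36) and -0.33 ± 0.18 for Jun (adjusted p = 0.423).

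Junb, an AP-1 subunit that often opposes Jun, came nearest to the threshold. It read 9.30 at the lowest, 10.15 at the median and 10.55 at the highest in GpatCD-CD, and 8.97, 9.59 and 10.03 in GpatCD-HF. On chow in the HFD line it read 8.96, 9.81 and 10.39, and the GpatHF-HF females read 8.22, 8.79, 9.16, 9.43 and 9.44. Every HFD female lay below the mean of the chow group of its line, though the groups overlapped. The value was -0.50 ± 0.24 in the chow line, -0.77 ± 0.26 in the HFD line and -0.63 ± 0.18 on average, with adjusted p = 0.551, 0.159 and 0.0597. Leaving out array 21, 26, 31 or 39 took the average of Junb past the threshold, with adjusted p between 0.0223 and 0.0479. Junb did not pass in the other fits without 1 array, where the adjusted p reached 0.128. Of 12 other processing settings (below) it passed in 2, with values from -0.67 to -0.48 and adjusted p up to 0.241. Array 24, the lowest of all for Junb, lay 0.98 below the mean of the rest of its group.

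Egr1, a zinc-finger transcription factor induced through serum response factor, read 11.21 at the lowest, 11.85 at the median and 12.14 at the highest in GpatCD-CD, and 10.22, 11.44 and 12.08 in GpatCD-HF. In GpatHF-CD it read 10.73, 11.18 and 12.21, and the 5 GpatHF-HF females read 10.92, 11.05, 11.12, 11.14 and 11.27. Its SD was 0.34 in GpatCD-CD, 0.65 in GpatCD-HF, 0.67 in GpatHF-CD and 0.13 in GpatHF-HF, a difference in spread that was not tested. The own-diet average of Egr1 was -0.37 ± 0.18 (adjusted p = 0.395). Atf3, a stress-induced member of the ATF family, read 6.86, 8.47 and 9.85 in GpatCD-CD, 7.52, 7.95 and 8.80 in GpatCD-HF, 7.00, 7.83 and 9.65 in GpatHF-CD, and 6.59 to 8.97 in GpatHF-HF. Its average own-diet value, -0.66 ± 0.33, was the largest of the set and also the least precise, with adjusted p = 0.4.

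**Figure D2:**
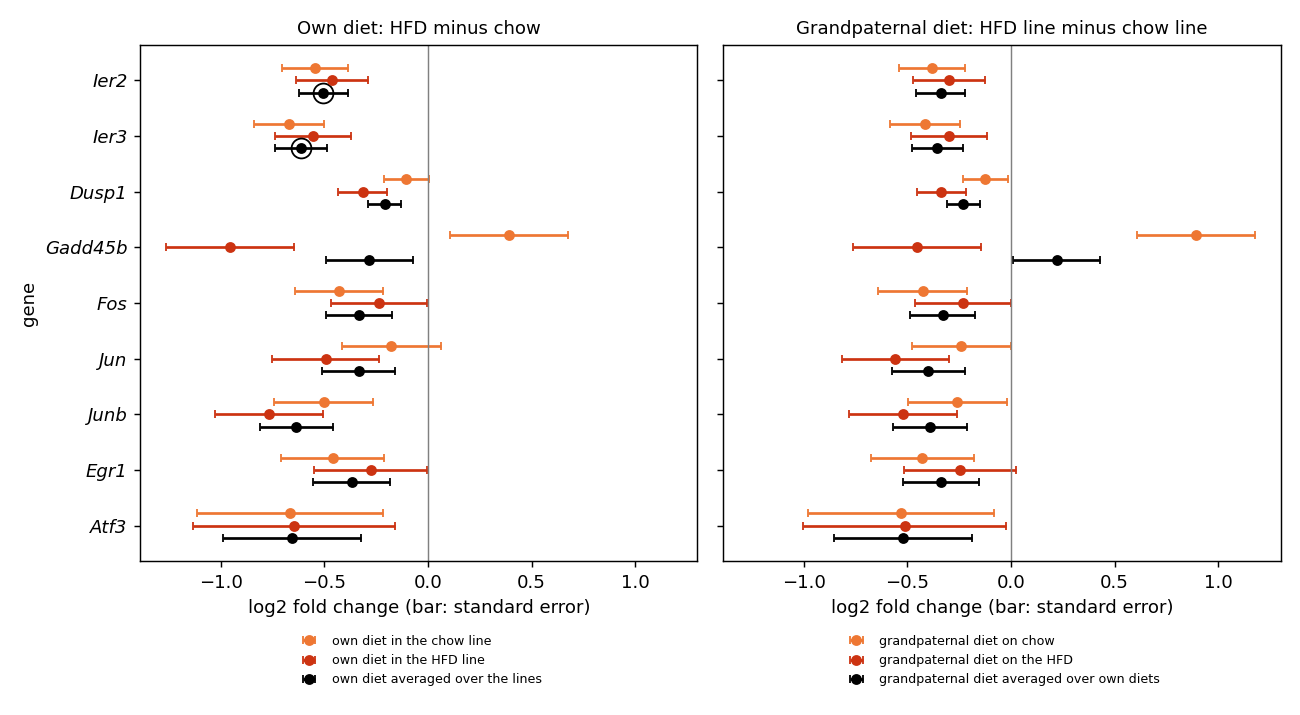
Log2 fold changes of the 9 genes (points) with standard errors (bars), for the own diet on the left and the grandpaternal diet on the right, each within the other diet's levels and averaged over them. Rings mark the values with an adjusted p under 0.05, which are those of Ier2 and Ier3 for the averaged own diet; Gadd45b has opposite signs in the chow line and the HFD line.

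Within the chow line alone 0 of the 9 genes passed in limma, with 3 lower at an unadjusted p under 0.05, while 0.319% of all probe sets passed and 4.12% were lower at an unadjusted p under 0.05. The median was -0.46 for the genes and 0.01 for all probe sets, and 8 of the 9 lay below 0 against 45.6% of all. In the HFD line 0 of 9 passed, with 5 lower at an unadjusted p under 0.05, against 0.752% of all probe sets passing (15 rose and 103 fell, or 34 and 56 after quantile normalization) and 13.4% lower unadjusted. That count of 118 probe sets fell to 56 without array 42, 58 without array 45, 65 without array 37, 69 without array 24, 72 without array 44 and 77 without arrays 21, 22, 24 and 25. The same HFD-line count rose to 148 without array 28, 143 without array 30 and 142 without array 21. All 9 lay below 0 there, with a median of -0.49, against 71.6% of all probe sets and a median of -0.09. The interaction called 0 of 9 genes and 0% of all probe sets, with 4 of the 9 below 0 against 70.2% of all. Without array 28 the interaction was called for 57 probe sets and without array 22 for 48, all of them lower. Of the 9, Gadd45b was lower at an unadjusted p under 0.05 there, and 8.22% of all probe sets were. The interaction was 0.08 ± 0.24 for Ier2 (adjusted p = 0.917) and 0.12 ± 0.25 for Ier3 (adjusted p = 0.888), which does not show that the lines responded alike.

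The grandfather's diet was the second question of the design. Averaged over the females' own diets, 0 of the 9 genes and 0% of all probe sets passed in limma, and the genes' adjusted p ran from 0.334 to 0.739. Fold changes were nonetheless below 0 for 8 of the 9, with a median of -0.34 against -0.05 for all probe sets, of which 74.2% lay below 0. At an unadjusted p under 0.05, 6 of the 9 were lower, against 10.4% of all: Ier2 at -0.34 ± 0.12, Ier3 at -0.36 ± 0.12, Dusp1 at -0.23 ± 0.08, Fos at -0.33 ± 0.16, Jun at -0.40 ± 0.18 and Junb at -0.39 ± 0.18. None of these is a call, and genes that varied together do not count as independent.

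On chow, 0 of 9 genes and 0% of all probe sets passed for the grandpaternal diet, and 8 of the 9 lay below 0 against 53.8% of all. Ier2 was at -0.38 ± 0.16 (adjusted p = 0.51) and Ier3 at -0.41 ± 0.17 (adjusted p = 0.497), and all 6 GpatHF-CD females lay below the GpatCD-CD mean for both. Gadd45b stood on the other side, at 0.89 ± 0.29 (adjusted p = 0.448), with all 6 GpatHF-CD females above the GpatCD-CD mean and 3 of them above its highest female. That Gadd45b value was 0.53 (adjusted p = 0.752) without arrays 21, 22, 24 and 25. At an unadjusted p under 0.05, 2 genes were lower and 1 higher, against 5.27% and 3.88% of all probe sets.

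On the HFD, again 0 of 9 genes and 0% of all probe sets passed for the grandpaternal diet. All 9 lay below 0, with a median of -0.34, but so did 81.0% of all probe sets, whose median was -0.10. After quantile normalization, which took the median of all probe sets to -0.001, the 9 remained below 0 with a median of -0.20. Dusp1 at -0.34 ± 0.12 and Jun at -0.56 ± 0.26 were lower at an unadjusted p under 0.05 (adjusted p = 0.415 and 0.445), against 10.6% of all probe sets. The own-diet and grandpaternal contrasts share arrays, GpatCD-CD among them, so their values for the same gene are not independent.

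To show where each female stood, the 9 signals were centred on the array median, scaled to unit SD per gene over the 24 arrays and averaged per array. The mean of these levels was 0.56 ± 0.67 (SD, n = 7) in GpatCD-CD, -0.17 ± 0.40 (n = 6) in GpatCD-HF, 0.09 ± 0.68 (n = 6) in GpatHF-CD and -0.69 ± 0.45 (n = 5) in GpatHF-HF. Females of GpatHF-HF ran from -1.24 to -0.28, all below 0. Those of GpatCD-CD ran from -0.71 to 1.36, with array 26 as the only female of that group below 0. In array 39, a GpatHF-CD female on chow, all 9 genes lay below their mean, as they did in array 46 of GpatHF-HF. The arrays that stood apart on the second component did not share a level: array 25 was at 1.15 and array 24 at -1.11.

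**Figure D3:**
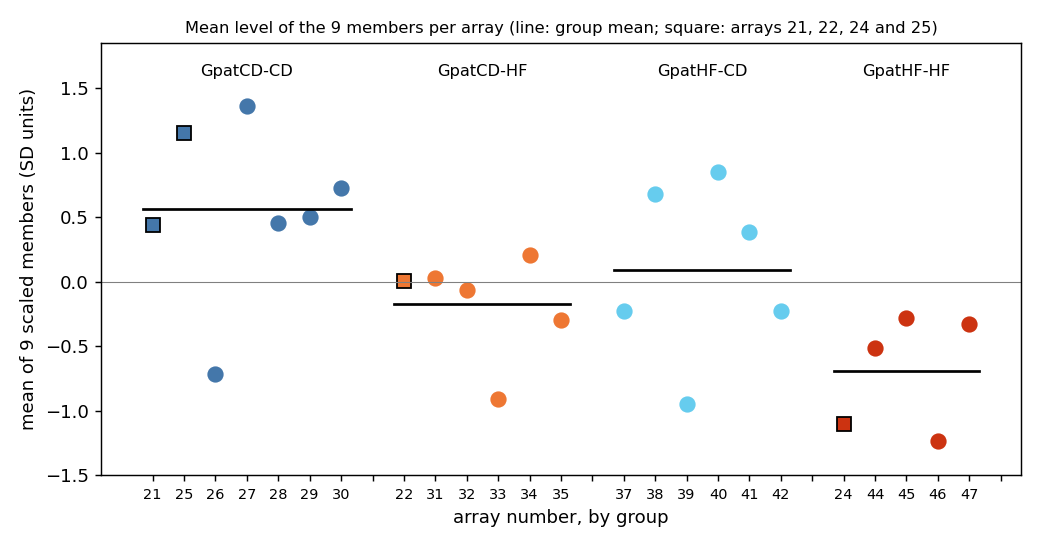
Mean of the 9 scaled signals per array (SD units, vertical axis) by array number and group (horizontal axis), with a line at each group mean and squares for arrays 21, 22, 24 and 25. The 5 GpatHF-HF arrays lie between -1.24 and -0.28, and 1 of the 7 GpatCD-CD arrays, array 26 at -0.71, lies below 0.

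The 9 genes differed more between females of the same group than most probe sets did. Their within-group SD lay at the 99.7th percentile of all tested probe sets for Atf3, the 98.5th for Gadd45b, 97.8th for Egr1, 97.4th for Jun and for Junb, 96.3rd for Fos, 91.8th for Ier3 and 89.7th for Ier2, but at the 60.3rd for Dusp1. Over all 24 arrays the highest signal exceeded the lowest by 9.53-fold for Atf3, 9.05-fold for Gadd45b, 5.03-fold for Junb and 2.10-fold for Dusp1. The typical within-group SD of a probe set was 0.19.

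Females high in one of these genes tended to be high in particular others. With group means removed and arrays centred on their median, 31 of the 36 pairs correlated positively over the 24 arrays, with a median Pearson r of 0.33 and a range of -0.31 to 0.88. In all, 8 of the 36 pairs passed a two-sided permutation test (100000 resamples within groups, Benjamini-Hochberg over the 36 pairs). Pairs of other probe sets were not counted, so whether such correlations are particular to these genes was not tested. Jun and Atf3 were the closest pair, with r = 0.88 and Spearman rho = 0.89 (both p = 1e-05, the smallest the permutations can give, adjusted p = 0.00036). Without the 2 arrays farthest from the median of Jun, r was 0.85.

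Junb was part of 5 of the 8 pairs. It correlated with Ier2 at r = 0.75 (rho = 0.75, permutation p = 4e-05 and 5e-05, adjusted p = 0.00072 and 0.0009; r = 0.71 without the 2 farthest arrays). With Egr1 it correlated at r = 0.72 (rho = 0.70, permutation p = 9e-05 and 0.00059, adjusted p = 0.00108 and 0.00708; r = 0.64 without them). The other pairs of Junb were with Gadd45b (r = 0.64, adjusted permutation p = 0.0143), Jun (r = 0.61, adjusted p = 0.0136) and Atf3 (r = 0.60, adjusted p = 0.0337), and Ier2 also correlated with Egr1 (r = 0.62, adjusted p = 0.0136). Without arrays 21, 22, 24 and 25 the pair of Junb and Atf3 had adjusted permutation p = 0.0537. Ier3 correlated with Dusp1 at r = 0.52, with adjusted permutation p = 0.0496; without arrays 21, 22, 24 and 25 that pair was at 0.45 (adjusted p = 0.143), and without centring the arrays also at 0.45 (adjusted p = 0.146). Spearman rho of these last 5 pairs ran from 0.55 to 0.69, with adjusted permutation p from 0.00801 to 0.0347, and their r without the 2 farthest arrays ran from 0.47 to 0.64. Ier2 and Ier3, both lower on the HFD, were not a pair of this kind (r = 0.25, adjusted permutation p = 0.361), and Fos was in none.

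**Figure D4:**
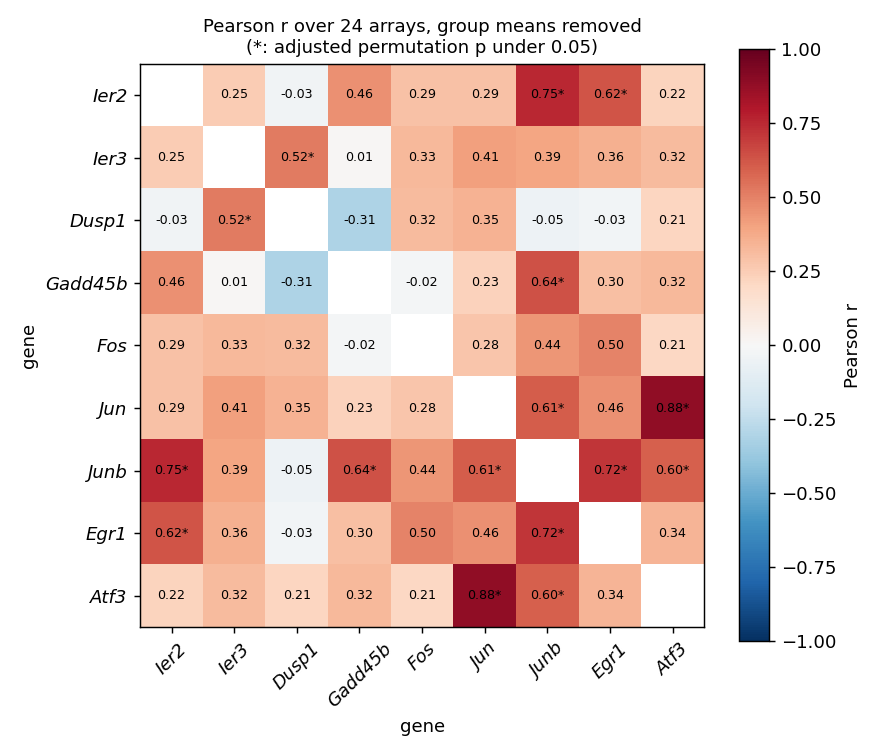
Pearson r for each pair of the 9 genes over 24 arrays after removal of the group means (colour and number), with a star where the adjusted permutation p was under 0.05. The highest value is 0.88 for Jun and Atf3, and Junb is part of 5 of the 8 starred pairs.

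Outside the set, the single-symbol probe sets whose pattern over the 24 arrays was most like the mean of the 9 scaled genes were, of 13790 compared, Txnip (r = 0.92), Zfp36 (r = 0.80), Siglec5 (r = 0.75), Ppp1r15a (r = 0.74) and Gdf15 (r = 0.74). With group means removed, r was 0.88 for Txnip, a glucose-responsive inhibitor of thioredoxin, and 0.81 for Zfp36, which destabilises AU-rich transcripts. Ppp1r15a encodes a phosphatase subunit induced in the integrated stress response, at a within-group r of 0.73, and Gdf15, at 0.63, encodes a stress-induced cytokine. These likenesses are descriptions of the arrays and were not tested. In limma the averaged own-diet value was -0.42 ± 0.11 for Txnip (adjusted p = 0.051), -0.42 ± 0.12 for Zfp36 (0.0759) and -0.33 ± 0.14 for Siglec5 (0.273). It was -0.44 ± 0.12 for Ppp1r15a (0.0565) and -0.58 ± 0.21 for Gdf15 (0.181), and none passed the threshold. These probe sets were picked on the same arrays with group differences left in, and the mean of the 9 genes was lower on the HFD. Negative own-diet values are thus partly built into the choice and are no separate evidence.

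Related genes were read from 6 lists, all for the own diet averaged over the lines unless stated. For that contrast 64.0% of all probe sets lay below 0, with a median of -0.03, and 1.63% fell. Of the 24 other AP-1, EGR and immediate early transcription factors, 21 were tested, 15 lay below 0 with a median of -0.08, and 1 fell. That was Nfil3, a basic leucine zipper repressor, with 10.24 ± 0.30, 9.87 ± 0.25, 10.16 ± 0.35 and 9.70 ± 0.18 (mean signal ± SD) in GpatCD-CD, GpatCD-HF, GpatHF-CD and GpatHF-HF, and a fold change of -0.42 ± 0.11 (adjusted p = 0.0403). Nfil3 passed in 7 of the 24 fits that leave out 1 array each and had adjusted p = 0.102 without arrays 21, 22, 24 and 25.

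Among 29 tested genes of immediate early feedback and signalling, 2 fell and 19 lay below 0, with a median of -0.07, against 1.63% and 64.0% of all probe sets. Plk3, a stress-responsive polo-like kinase, had mean signals of 7.44 ± 0.29, 7.03 ± 0.16, 7.57 ± 0.30 and 6.92 ± 0.30 in the same order and fell by 0.53 ± 0.11 (adjusted p = 0.00529). It was also lower in the HFD line alone, at -0.64 ± 0.16 (adjusted p = 0.0452), a call kept in 12 of 24 fits without 1 array and lost after quantile normalization, while the averaged call held in all 24. Socs3, the feedback inhibitor of cytokine signalling, fell by 0.37 ± 0.09 (adjusted p = 0.0361), with mean signals of 7.73 ± 0.18, 7.38 ± 0.14, 7.66 ± 0.37 and 7.27 ± 0.20. The Socs3 call was kept in 10 of the 24 fits without 1 array and lost after quantile normalization (adjusted p = 0.073). It was also lost with centred arrays and without arrays 21, 22, 24 and 25, whether or not quantile normalized. Among these processing settings its adjusted p reached 0.198 in limma.

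The remaining lists held 2 further falls. Of 10 tested p53 targets, 9 lay below 0 with a median of -0.15, against 64.0% of all probe sets and a median of -0.03, and 1 fell. Sesn1, a sestrin that restrains growth signalling, was that gene and fell by 0.43 ± 0.07 (adjusted p = 0.000312), from 9.59 ± 0.10 to 9.10 ± 0.18 in the chow line and from 9.49 ± 0.14 to 9.12 ± 0.16 in the HFD line. Sesn1 also passed within the chow line (-0.49 ± 0.09, adjusted p = 0.00628), and both calls held without any 1 array. Of 9 glucocorticoid-induced genes, 6 lay below 0 with a median of -0.08, and Pck1, the rate-limiting enzyme of gluconeogenesis, fell by 0.49 ± 0.13 (adjusted p = 0.0393), and passed in 8 of 24 fits without 1 array. None of 16 upstream kinases and resident factors (median -0.09) or of 9 genes of the integrated stress response (median 0.08) passed; the smallest p in the own-diet contrasts belonged to Atf1 (0.22 ± 0.10 in the chow line, adjusted p = 0.528) and Asns (0.63 ± 0.32 there, adjusted p = 0.587). In the grandpaternal contrasts and the interaction, no gene of the 6 lists passed.

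**Figure D5:**
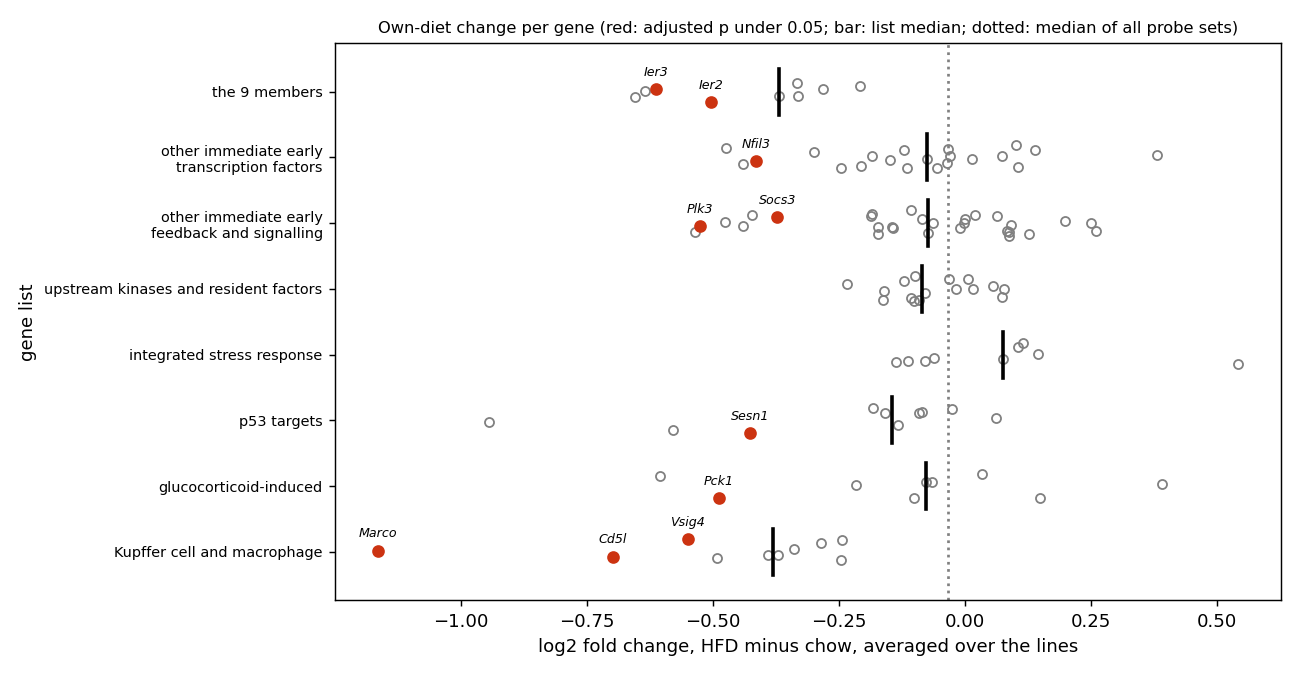
Own-diet log2 fold change, averaged over the lines (horizontal axis), of each tested gene by list, with red points at an adjusted p under 0.05, a bar at the median of the list and a dotted line at the median of all probe sets (-0.03). The medians are -0.37 for the 9 genes and -0.38 for the Kupffer cell and macrophage markers, and lie between -0.15 and 0.08 for the other lists shown. No other list of cell type markers is shown.

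Markers of Kupffer cells, the resident macrophages of liver, are given beside these results because some of them fell in the same contrast. All 10 tested Kupffer cell and macrophage markers lay below 0 on the HFD, with a median of -0.48 in the chow line, -0.33 in the HFD line and -0.38 on average, and 3 fell on average: Marco by 1.16 ± 0.16 (adjusted p = 6.93e-05), Cd5l by 0.70 ± 0.15 (0.00731) and Vsig4 by 0.55 ± 0.14 (0.0393). Vsig4 passed in 8 of 24 fits without 1 array, and Marco and Cd5l in all 24. Of all probe sets, 45.6% lay below 0 in the chow line, 71.6% in the HFD line and 64.0% on average. The markers' summed intensity ran from 5601 to 9235 in GpatCD-CD, 3252 to 5884 in GpatCD-HF, 4484 to 7999 in GpatHF-CD and 3996 to 6719 in GpatHF-HF. No marker of that list was under the filter on low signals. The part of these cells in the lower signals of Ier2 and Ier3 was not tested. Of the other marker lists, no gene passed among 7 hepatocyte, 2 neutrophil, 6 endothelial, 5 lymphocyte, 3 erythroid and 6 adipocyte markers tested. In that order, the list medians were 0.058, -0.044, 0.003, -0.154, 0.289 and 0.049 for the averaged own diet. The lymphocyte median was -0.373 in the chow line and -0.017 in the HFD line. Averaged medians were -0.053 for stellate cell, 0.017 for acinar and 0.003 for bile duct markers. The neutrophil markers S100a8, Mpo, Ngp and Cxcr2 lay under the filter. Rgs5 rose by 0.57 ± 0.15 (adjusted p = 0.039) among 7 stellate cell markers, Cpa1 fell by 1.44 ± 0.35 (0.0263) among 4 pancreatic acinar markers, and Epcam fell by 0.55 ± 0.10 (0.0033) among 4 bile duct markers. The Rgs5 call was kept in 12 of 24 fits without 1 array and lost without arrays 21, 22, 24 and 25. The Cpa1 call was lost without array 24 or 42, with the robust fit and without those 4 arrays, and the Epcam call held in all 24 fits without 1 array. The summed intensity of the acinar markers ran from 2212 to 8211 in GpatCD-CD, 1470 to 4114 in GpatCD-HF, 2620 to 5278 in GpatHF-CD and 324 to 3696 in GpatHF-HF, and its part in these results was likewise not tested.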

How the data were processed

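Liver RNA of 24 females was measured on 1 Affymetrix whole-transcript array each, and groups were taken from the sample titles. Per the submitters' processing notes, PLIER and Affymetrix Expression Console were used, and for each array the authors deposited intensity values on a linear scale, with versions and options not given in the sources used here. Each deposited intensity plus 16 was put on the log2 scale without normalizing arrays further, a scale that shrinks the changes of dim probe sets and leaves differences in array brightness in the values. A filter removed the dimmest 25% by mean (5230 probe sets), and limma 3.58.1 in R 4.3.3 fitted the other 15687 (4 group means, eBayes with an intensity trend). The two-sided p-values were adjusted by Benjamini and Hochberg's method over all 15687 probe sets, with a threshold of 0.05. The code of the fit was checked on simulated data with independent normal noise for each probe set. Those data had no differences in array brightness and no correlated genes, so the check says nothing about either. Correlations between genes used Python 3.11.15, numpy 2.4.6 and scipy 1.17.1. The number of arrays limits the precision.

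Symbols came from the platform annotation, updated by Entrez identifier from a RefSeq gene table: 18197 probe sets had 1 symbol (18052 matched), 960 had several and 1760 had none. No column of any other sample was used. The build behind the probe sets is not given in the sources used here, so no position of a probe set is printed.

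All measured genes of the set are named. From the 6 lists of related genes, every gene past the threshold in a contrast is named, or otherwise the gene with the smallest p in the own-diet contrasts, and 5 probe sets are named for likeness of pattern. Marker genes and single arrays named beside a result were chosen after their values were seen. The set, the 6 lists and the 10 lists of cell type markers were chosen with earlier results of these data known, so no list is independent evidence.

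Alternatives were quantile normalization, centring arrays on their median, other filters (none, or the lower 50% left out), an offset of 1 or of 50, a robust eBayes fit or one with no trend, array weights, the compared groups alone, arrays 21, 22, 24 and 25 left out or as a block, and each array left out in turn. Quantile normalization without those 4 arrays was added after seeing the data.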

Additional observations from a re-analysis of the deposited data

How the results depend on the processing

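Averaged over the lines, the count of genes past the threshold for the own diet was 2, with a range of 2 to 3 when each array was left out in turn. It was 4 with array weights (Junb with adjusted p = 0.0374 and Dusp1 with 0.0423 in addition to Ier2 and Ier3), and 1 (Ier3) with quantile normalization without arrays 21, 22, 24 and 25. It was 3 with those arrays as a block, with Junb at adjusted p = 0.0454. Dusp1 passed without array 30 (adjusted p = 0.04). In the chow line the count was 0, ranged from 0 to 1 with each array left out in turn, and was 1 with array weights, where Ier3 was at -0.84 (adjusted p = 0.0104). Ier2 kept its call in all 24 fits without 1 array (adjusted p 0.00673 to 0.0485), and so did Ier3 (0.0023 to 0.0154).

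No result changed its direction while called. The next counts pool the 9 genes with the list and marker genes, the latter only for contrasts in which they passed. Of these values of single genes, 2718 kept their side of the threshold and their direction, 124 lost a call and 11 gained one. Among the 9 genes the only call lost was that of Ier2, with quantile normalization without arrays 21, 22, 24 and 25. Gains were possible for the 9 genes only, because the other genes entered with a call. Another 20 changed sign without being called, all in the interaction, 15 of them for Atf3. Fos has no value with the lower 50% left out, and the compared groups alone were used for the 4 contrasts between a pair of groups. Without the 4 arrays 6 of the 36 pairs passed, and 7 passed with arrays not centred. No paired analysis was possible because no number in the titles occurs in more than 1 group. Dixon's criterion, applied to each of the 9 genes in each of the 4 groups, marked 0 of 36 sets of values. Over all probe sets, array weights raised the averaged own-diet count from 312 to 581 and the averaged grandpaternal count from 0 to 54, the highest of their alternatives, and the count of 50 in the chow line was 89 after quantile normalization, 90 with centred arrays and 95 both with array weights and with quantile normalization without the 4 arrays. The count of 118 in the HFD line was 71 with centred arrays, 66 with quantile normalization without the 4 arrays and 186 with array weights. With 1 array left out, the averaged grandpaternal count reached 7 (without array 34), and the count on the HFD reached 4 (likewise) and on chow 1. For dim genes such as Fos, signal close to background limits the measurable change.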

Other observations

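Some related genes of the lists did not pass the test for the own diet, averaged over the lines, and their values on the log2 scale (HFD minus chow, ± SE) are given here, chosen after they were seen. Cdkn1a, the cell cycle inhibitor p21 and a p53 target, was at -0.94 ± 0.28 (adjusted p = 0.0858 in limma), and Csrnp1, an immediate early nuclear protein, at -0.47 ± 0.13 (adjusted p = 0.0635). The circadian and glucocorticoid-induced gene Per1 was on the other side, at 0.39 ± 0.17 (adjusted p = 0.283). Nr4a1, an orphan receptor of the immediate early class, was at -0.08 ± 0.24 (adjusted p = 0.929), and Myc at 0.14 ± 0.16 (adjusted p = 0.776).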
